A study of Mus musculus with 12 samples.

Results

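Transcripts of 6 genes of neuregulin and ErbB signalling were followed in mouse hearts and heart muscle cells that had lost Med30, a subunit of the Mediator complex that links transcription factors to RNA polymerase II. The 6 genes, out of 20775 in each deposited table, were chosen by symbol: the ligand genes Nrg1 and Hbegf and the receptor genes Erbb2, Erbb3, Erbb4 and Egfr. All 6 were present in both tables, and each was compared between knockout and control within its own table. RNA-seq values were given as RPKM, read counts scaled to the length of the transcript and the size of the library.

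Med30 f/f mice carry loxP sites around exon 1 of Med30, and the line came from 1 targeted clone of R1 ES cells, which are of 129-SV/J origin, with later crosses to C57BL/6J and FLP mice. The labels give the strain of all samples as C57BL/6. The first table held 3 samples of E10.5 hearts from Tnnt-Cre; Med30 f/f embryos (cKO), in which Cre is active in developing cardiomyocytes, and 3 controls (Ctrl), which the labels call wild type and which by the study's methods were Cre-negative Med30 f/f littermates. The second held cardiomyocytes isolated from hearts of 3-month-old mice 4 weeks after tamoxifen. In it 3 samples came from Med30 f/f mice with αMHC-MerCreMer (icKO), in which tamoxifen activates Cre in cardiomyocytes. The other 3 came from controls (Ctrl) that were also given tamoxifen. These too are called wild type by the labels, and by the paper they were Cre-negative Med30 f/f mice. No control carried Cre, so an effect of Cre itself and of the loss of Med30 cannot be told apart in these samples. The paper reports no deaths or loss of cardiac function after tamoxifen in αMHC-MerCreMer mice that lacked a floxed allele. RNA of such mice is not among these samples. The sources used here do not say whether an RNA-seq sample was 1 heart or a pool, and the p-values measure only the spread between these samples.

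Neuregulin 1 is made by endocardial and endothelial cells and acts on the neighbouring heart muscle cells. There it binds ErbB3 or ErbB4, which pair with ErbB2, a receptor that binds no ligand itself, while EGFR binds EGF and related ligands and HB-EGF, the product of Hbegf, binds both EGFR and ErbB4. Mice lacking Nrg1, Erbb2 or Erbb4 fail to form ventricular trabeculae and die in mid-gestation, whereas loss of Erbb3 affects the endocardial cushions, the precursors of the valves, and loss of Hbegf affects the valves and the adult muscle. In the adult heart the pathway is known for protecting cardiomyocytes, and blocking ErbB2 can cause cardiomyopathy. Downstream, the receptors signal through adaptor proteins to the Ras-ERK and PI3K-Akt cascades.

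Erbb2 and Erbb4, receptor genes whose transcripts moved in opposite directions in adult icKO cells, are shown by the 250 bases before their RefSeq start (GRCm38.p6), 5′ to 3′ on the strand of the gene. The Erbb2 window is chr11:98412234-98412483, plus strand, and the Erbb4 window is chr1:69108060-69108309, minus strand. Capitals mark CCAAT, the CCAAT box, and no other motif searched was found in either window.
Erbb2: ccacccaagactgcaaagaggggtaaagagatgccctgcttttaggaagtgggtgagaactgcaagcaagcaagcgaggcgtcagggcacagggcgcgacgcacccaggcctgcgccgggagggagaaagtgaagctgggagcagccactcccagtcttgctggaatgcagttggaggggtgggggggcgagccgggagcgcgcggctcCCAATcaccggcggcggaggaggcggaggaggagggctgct
Erbb4: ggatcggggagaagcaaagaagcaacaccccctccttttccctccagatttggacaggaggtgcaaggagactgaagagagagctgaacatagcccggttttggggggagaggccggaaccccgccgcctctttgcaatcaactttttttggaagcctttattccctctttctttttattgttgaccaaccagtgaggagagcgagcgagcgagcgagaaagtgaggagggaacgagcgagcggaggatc
The Erbb2 window held 1 CCAAT, whose first base lies at -41 from the start, and had a GC content of 66% with 16 CpG dinucleotides. The Erbb4 window had a GC content of 54% with 12 CpG, and over 32851 mouse promoters of the same length the medians were 52.4% and 6. Searched on both strands, TATAAA was held by 12.4% of those promoters, GGGCGG by 32.7%, CCAAT by 33.8%, TGANTCA by 6.75% and CACGTG by 6.02%. These matches describe the letters of the windows and were tied to no measurement.

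In GENCODE vM21 on GRCm38, Erbb2 lies on chromosome 11, 98412470 to 98437716, plus strand, and Egfr on the same chromosome, 16752203 to 16918158, plus strand. Erbb3 lies on chromosome 10, 128567523 to 128589652, and Erbb4 on chromosome 1, 68032186 to 69108059, both on the minus strand. The end of Erbb2 meets that of Mien1, a protein-coding gene on the opposite strand, with 9 exonic bases in common out of 5210 exonic bases of Erbb2. Egfros, an antisense gene within Egfr, shares 0 exonic bases with it. Whether the counting used strand was not stated in the sources used here.

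The estimated depth was 13.7 M to 19.99 M reads per sample at E10.5 and 11.9 M to 17.5 M at 4 weeks, read from the spacing of low RPKM values, 52.1% to 56.2% of which lay no more than 0.1 from a whole number of reads (20% if values were spread evenly). Med30 itself fell at both stages (limma adjusted p = 0.000367 and 0.000403). Its RPKM was 10.6, 13.3 and 11.3 in E10.5 Ctrl and 1.38, 2.02 and 1.004 in cKO, and 7.66, 7.45 and 7.66 in the 4-week Ctrl and 3.81, 3.16 and 1.83 in icKO. The deposited scale mattered at 4 weeks: the 20 most abundant genes held 24.8% to 25.4% of all RPKM in Ctrl and 11.5% to 13.1% in icKO, and over the 9517 genes tested there the log2 fold change had a median of 0.57. With scaling by the median ratio of genes that median was 0.04, so member values on both scales are given for that stage. At E10.5 the median of the 10885 genes tested was -0.13, and -0.01 with median-ratio scaling.

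The cells sampled differed between stages. The E10.5 hearts held markers of muscle and other lineages: the summed RPKM of 9 endocardial and endothelial marker genes was 166 to 224 in Ctrl and 194 to 214 in cKO. The only marker gene of any list to pass at E10.5 was Tbx18, of the epicardial list. Its mean RPKM was 10.3 in Ctrl and 5.44 in cKO (limma adjusted p = 0.0328). The adult samples were dominated by cardiomyocyte transcripts, with a summed RPKM of 6 cardiomyocyte genes of 11155 to 11784 in Ctrl and 4045 to 4816 in icKO, where Myh6 (α-myosin heavy chain), Tnni3, Ryr2 and Tnnt2 fell while Actn2 and Nkx2-5 rose. The summed RPKM of 8 fibroblast marker genes was 5.03 to 8.39 in the 4-week Ctrl and 60.4 to 87.5 in icKO, and all 5 of those tested rose, among them Postn (periostin). The endothelial sum was 12.03 to 25.0 in Ctrl and 27.8 to 39.9 in icKO. Of its 8 tested genes 4 were higher and none lower. Over all genes tested at 4 weeks 60.6% were higher and 18.1% lower, so the endothelial share of higher genes was no larger. The macrophage sum over 7 genes was 1.93 to 2.73 in Ctrl and 5.42 to 6.31 in icKO. The sum over 6 genes of mural (vessel wall) cells was lower, at 60.8 to 68.7 in Ctrl and 21.8 to 45.3 in icKO. In it Abcc9 fell while Pdgfrb and Cspg4 rose. The Schwann and neural crest sum over 6 genes was 1.66 to 3.01 in Ctrl and 0.727 to 1.89 in icKO, with overlap. The part of other cells in the adult results below was not tested, and in these bulk samples fewer cells of a type and less RNA per cell cannot be told apart.

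In E10.5 hearts without Med30, Nrg1 was the only gene of the 6 to pass the test: its transcript rose 1.72-fold in mean RPKM. Hbegf had nearly the same fold change but a wider spread, Erbb2 was lower in every cKO sample without passing the test, and Erbb3, Erbb4 and Egfr overlapped between groups. Of all genes tested at E10.5, 4.32% passed with limma and a Benjamini-Hochberg adjusted p under 0.05, 0.864% as higher and 3.45% as lower. Since the members were tested in both directions, 1 of 6 stands beside 4.32%. No member at E10.5 also changed by more than 1 on the log2 scale, as 0.239% of genes did upwards and 0.542% downwards. In the adult icKO cardiomyocytes, Hbegf rose 6.89-fold and Erbb2 rose, Erbb4 fell and Erbb3 did not pass, while Nrg1 and Egfr lay below the expression filter of a mean RPKM above 1. There 60.6% of all genes tested passed as higher and 18.1% as lower, so the 2 of 4 tested members that rose are no larger a share than that of all genes. Values in every sample are shown in the plot of RPKM by sample, and the fold changes in the plot of fold changes with intervals.

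**Figure D1:**
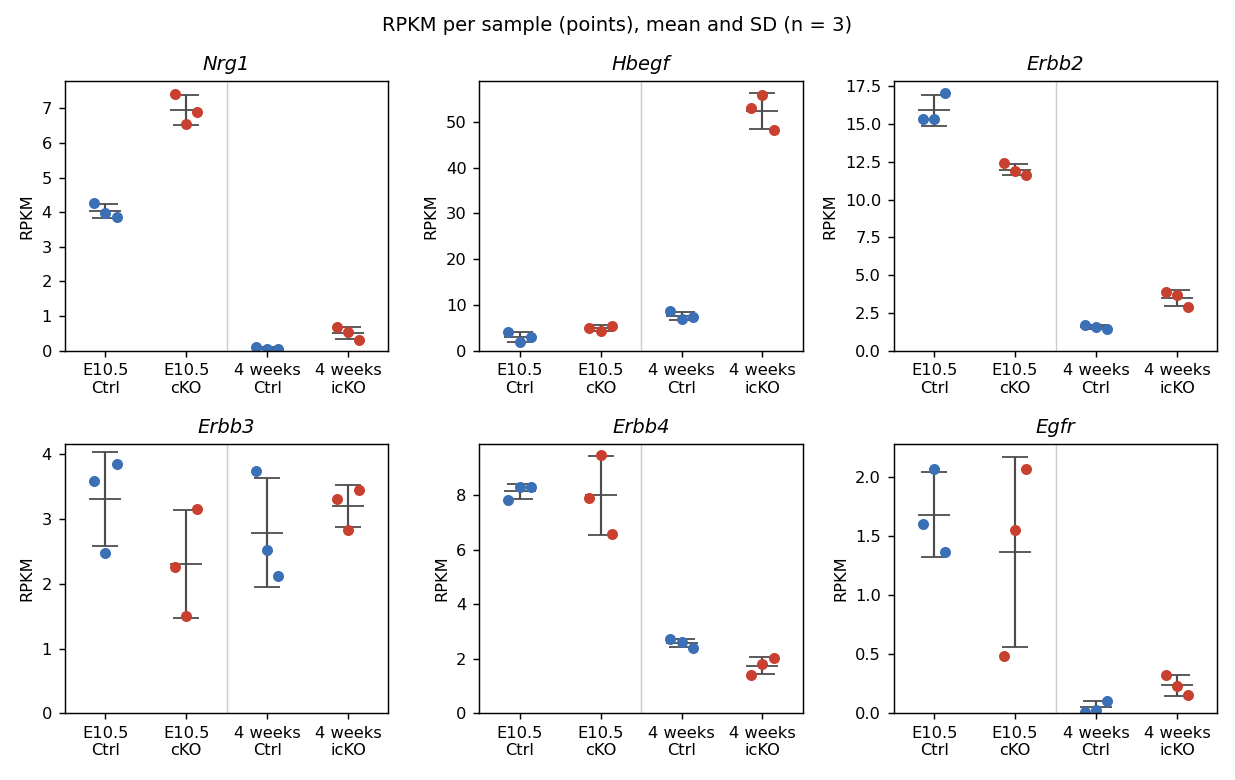
RPKM of the 6 genes (vertical axes from 0, scaled for each gene) in the 4 groups along the horizontal axis. Points are samples (blue Ctrl, red cKO or icKO) and the horizontal lines are the mean and 1 SD on either side (n = 3); Nrg1 separates the E10.5 groups, and Hbegf reaches 48.2 to 55.8 RPKM in the 4-week icKO samples.

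**Figure D2:**
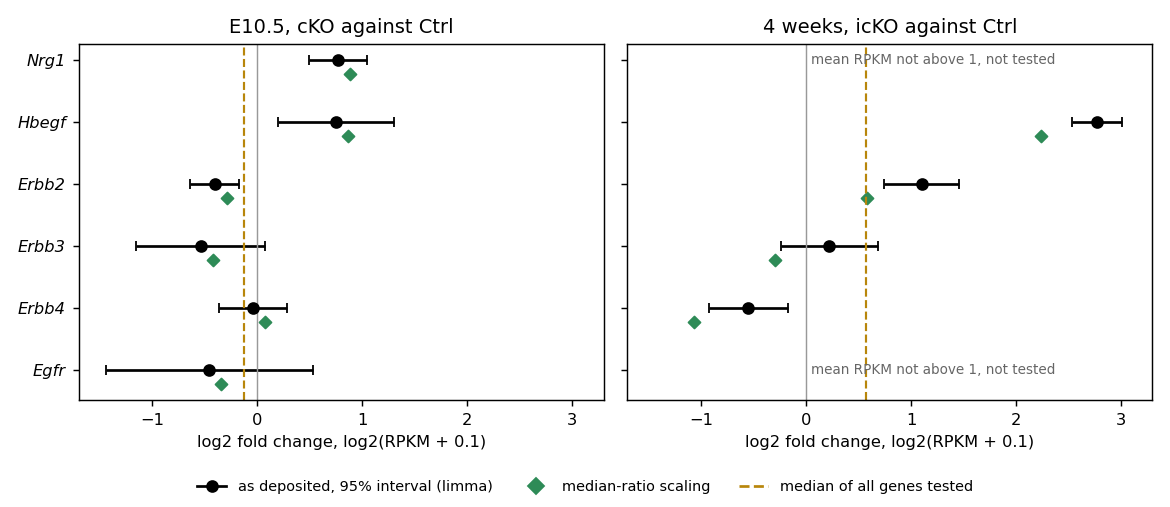
Log2 fold change of knockout over Ctrl on the log2(RPKM + 0.1) scale (horizontal axis) for each gene at both stages. Black points and bars are the limma estimate and its 95% interval on the deposited RPKM, green diamonds the estimate after median-ratio scaling, and the dashed line the median of all genes tested, at -0.13 at E10.5 and 0.57 at 4 weeks; Erbb4 lies left of 0 and of that line at 4 weeks on both scales.

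Nrg1 spans chromosome 8, 31814551 to 32884029, and Hbegf chromosome 18, 36504927 to 36515805, both on the minus strand of GRCm38. Among the ligands, Nrg1 gave 4.27, 3.98 and 3.86 RPKM in the 3 E10.5 Ctrl samples and 7.42, 6.55 and 6.88 in the 3 cKO samples. Every cKO value lay above every Ctrl value, with a gap wider than the spread within either group. The mean went from 4.04 ± 0.209 to 6.95 ± 0.438 (SD, n = 3), a log2 fold change of 0.77 (SE 0.124, 95% interval 0.49 to 1.05, limma adjusted p = 0.0204). Of all 10885 genes, 99.0% had a lower fold change. Such separation with all knockouts higher occurred in 6.5% of the genes tested. The call was lost on leaving out any of 3 samples: the limma adjusted p was 0.0854 without Ctrl 3, 0.0655 without cKO 1 and 0.0548 without cKO 2, with log2 fold changes between 0.72 and 0.81 over all 6 fits.

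Of the 9 markers of the endocardium and endothelium, the known source of Nrg1, none passed the limma test at E10.5 in either direction and 0 had an unadjusted p under 0.05. The share of all genes with an unadjusted p under 0.05 was not counted. The median change of the 9 markers was 0.14 on the log2 scale, against -0.13 for all genes tested. Their values ran from -0.03 for Kdr to 0.26 for Emcn, all above that median of all genes. Npr3, a marker of the endocardium, had a mean RPKM of 20.7 in Ctrl and 21.4 in cKO, and Pecam1 one of 22.1 and 24.9. The part of endocardial and endothelial cells in the E10.5 Nrg1 values was not tested.

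In adult cardiomyocytes Nrg1 was barely detected. Its RPKM was 0.108, 0.054 and 0.056 in the 4-week Ctrl samples and 0.675, 0.540 and 0.318 in icKO. These values correspond to about 8, 5 and 5 reads and about 62, 49 and 21 reads on the longest annotated transcript at the estimated depths. The groups did not overlap, as in 62% of the genes tested at 4 weeks, but with a mean under 1 RPKM Nrg1 was not part of the main test; in the fit without a filter its log2 fold change was 1.79 (limma adjusted p = 0.000780). The endothelial and fibroblast marker sums given above were also higher in these icKO samples, and their part in the Nrg1 reads was not tested.

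Hbegf, the gene of heparin-binding EGF-like growth factor, gave 4.03, 1.90 and 3.00 RPKM in E10.5 Ctrl hearts and 4.98, 4.20 and 5.50 in cKO. The lowest cKO value lay just above the highest Ctrl value, and the Ctrl samples varied by more than the cKO samples. The mean went from 2.98 ± 1.06 to 4.89 ± 0.658 (SD, n = 3), and the log2 fold change of 0.75 (SE 0.245, 95% interval 0.20 to 1.30) had a limma adjusted p of 0.106. It passed when the 20 most abundant genes were left out of the scaling (0.93, limma adjusted p = 0.0325) and with sample weights (0.67, limma adjusted p = 0.0280), and without Ctrl 2 it was 0.47 (limma adjusted p = 0.179).

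At 4 weeks Hbegf gave 8.59, 6.86 and 7.33 RPKM in Ctrl and 53.0, 55.8 and 48.2 in icKO. The groups were apart by far more than the spread within either, with all knockouts higher as in 62% of the genes tested. The mean went from 7.59 ± 0.895 to 52.3 ± 3.83 (SD, n = 3). The log2 fold change was 2.77 (SE 0.105, 95% interval 2.53 to 3.01, limma adjusted p = 1.98e-07), above that of 97.9% of the genes tested, and 2.24 with median-ratio scaling. A stricter rule, an adjusted p under 0.05 and a change of more than 1 on the log2 scale, was met by Hbegf and Erbb2, 2 of the 4 members tested, and by 28% of the genes tested in the higher direction, and by 8.45% in the lower direction.

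The other 9 genes of ErbB ligands were low at both stages. At E10.5 only Nrg4 and Tgfa, which encode a ligand of ErbB4 and a ligand of EGFR, exceeded the filter: Nrg4 had a mean RPKM of 2.09 in Ctrl and 1.72 in cKO (limma adjusted p = 0.590) and Tgfa one of 1.32 and 1.45 (limma adjusted p = 0.862). At 4 weeks the 2 tested genes were Egf and Nrg4. Egf fell, with 2.92, 4.08 and 2.55 RPKM in Ctrl and 0.754, 0.854 and 0.804 in icKO, a log2 fold change of -1.83 (SE 0.201, limma adjusted p = 3.28e-05). Nrg4 gave 1.37, 0.708 and 0.581 RPKM in Ctrl and 1.07, 1.116 and 1.21 in icKO (limma adjusted p = 0.242). Egf was thus lower in every icKO sample while Hbegf was higher, and both encode ligands of EGFR.

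The remaining ligand genes stayed below the filter. Areg (amphiregulin) was listed at 0 in the 3 Ctrl samples at 4 weeks and had 0.488, 0.493 and 0.619 RPKM in icKO, about 10, 10 and 9 reads. Btc (betacellulin) had a mean RPKM of 0.273 in the 4-week Ctrl and 0.0650 in icKO. Nrg2 had one of 0.274 in E10.5 Ctrl and 0.145 in cKO, and one of 0.136 and 0.0377 at 4 weeks. Tgfa at 4 weeks had one of 0.0507 and 0.105, and Egf at E10.5 one of 0.418 and 0.205. Nrg3 was listed at 0 in all 12 samples. Ereg and Epgn did not exceed 0.171 RPKM in any sample, nor did Areg and Btc at E10.5.

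**Figure D3:**
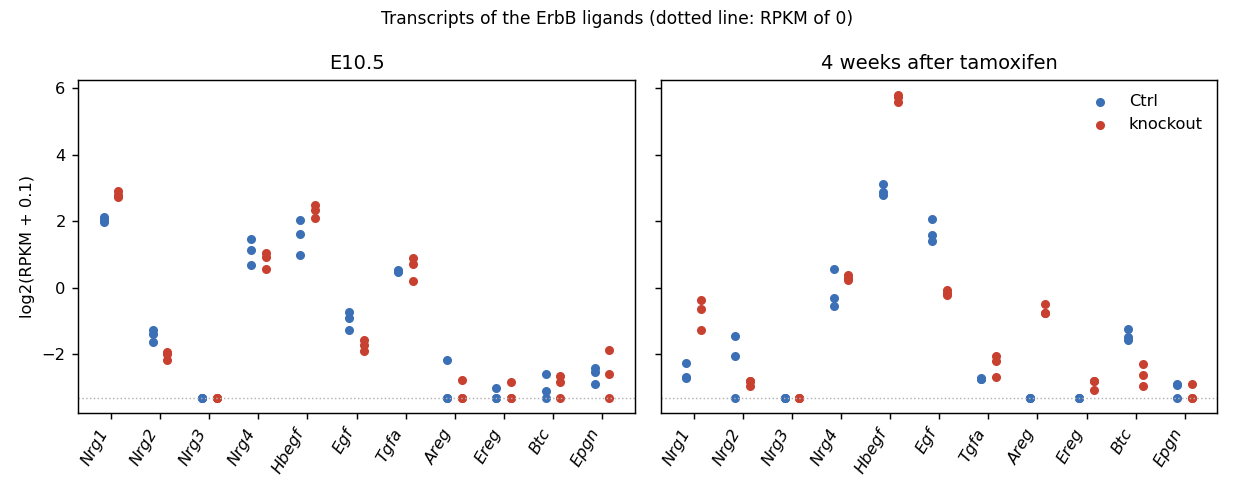
Log2(RPKM + 0.1) (vertical axis) of the 11 ErbB ligand genes (horizontal axis) in each sample at E10.5 and at 4 weeks, blue for Ctrl and red for cKO or icKO, with a dotted line at an RPKM of 0. Nrg1, Hbegf, Nrg4 and Tgfa lead at E10.5, whereas Hbegf stands above all other ligands at 4 weeks, by more in icKO than in Ctrl.

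The make-up of the ligand transcripts therefore differed by stage. RPKM is per length, which allows genes to be set side by side. The lengths used were not given, so shares and orders of genes here and below rest on lengths that could not be checked. Nrg1 held 36.4% ± 5.18 of the summed ligand RPKM in E10.5 Ctrl and 45.1% ± 3.34 in cKO (SD, n = 3), and the groups overlapped. Hbegf held 25.9% ± 5.15 and 31.5% ± 1.58. At 4 weeks Nrg1 held 0.584% ± 0.188 in Ctrl and 0.911% ± 0.290 in icKO, also with overlap. Hbegf held 62.3% ± 5.48 (SD, n = 3) in Ctrl and 94.2% ± 0.180 in icKO. The summed ligand RPKM was 9.45 to 13.4 in E10.5 Ctrl and 13.6 to 16.5 in cKO, and 10.9 to 13.5 in the 4-week Ctrl and 51.3 to 59.1 in icKO.

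Among the receptors, Erbb2 was the most abundant at E10.5. It gave 15.3, 15.3 and 17.1 RPKM in Ctrl and 12.4, 11.9 and 11.7 in cKO, and each cKO value lay below each Ctrl value. The mean went from 15.9 ± 1.005 to 11.98 ± 0.386 (SD, n = 3), and the log2 fold change of -0.40 (SE 0.105, 95% interval -0.64 to -0.17) had a limma adjusted p of 0.0607. A separation of this kind with all knockouts lower occurred in 22.6% of the genes tested. The value passed when genes with a mean RPKM of 5 or less were left out (limma adjusted p = 0.0438) and with sample weights (-0.45, limma adjusted p = 0.00802). It was smaller under the 3 other scalings, at -0.29 with median-ratio scaling, -0.28 with quantile normalization and -0.23 without the 20 most abundant genes (limma adjusted p = 0.144, 0.166 and 0.280).

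At 4 weeks the direction was the opposite. Erbb2 gave 1.70, 1.57 and 1.43 RPKM in Ctrl and 3.91, 3.66 and 2.91 in icKO, and the groups did not overlap, as in 62% of the genes tested with all knockouts higher. The mean went from 1.57 ± 0.135 to 3.49 ± 0.521 (SD, n = 3), a log2 fold change of 1.10 (SE 0.157, 95% interval 0.75 to 1.46, limma adjusted p = 0.000172). It was above that of 75.8% of the genes tested, and with median-ratio scaling it was 0.58 (limma adjusted p = 0.00705) and no longer beyond 1. Mien1, the neighbour that meets Erbb2 end to end, had a mean RPKM of 16.2 in Ctrl and 30.3 in icKO and rose by 0.90 on the log2 scale (limma adjusted p = 0.000105); the part of its reads in the Erbb2 values was not tested.

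Erbb4, the neuregulin receptor of heart muscle, gave 7.84, 8.30 and 8.31 RPKM in E10.5 Ctrl and 7.91, 9.49 and 6.58 in cKO. The cKO samples lay on both sides of the Ctrl samples and varied more than them. The log2 fold change was -0.04 (SE 0.144, limma adjusted p = 0.890), and its 95% interval from -0.36 to 0.28 leaves room for changes of either sign. With median-ratio scaling it was 0.08.

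In the adult cells Erbb4 fell, although most genes tested moved up. It gave 2.73, 2.61 and 2.42 RPKM in Ctrl and 1.41, 1.83 and 2.03 in icKO, and every icKO value lay below every Ctrl value, as in 18.9% of the genes tested. The mean went from 2.59 ± 0.157 to 1.75 ± 0.316 (SD, n = 3), a log2 fold change of -0.55 (SE 0.167, 95% interval -0.93 to -0.17, limma adjusted p = 0.0138). Only 14.3% of the genes tested had a lower value, and with median-ratio scaling the log2 fold change was -1.06 (limma adjusted p = 0.000609). The cardiomyocyte genes Myh6, Tnni3, Ryr2 and Tnnt2 fell in the same samples, by log2 fold changes of -3.34, -2.12, -2.84 and -0.75, whereas Actn2 and Nkx2-5, the other 2 of the 6 listed, rose by 0.86 and 0.74. The part of a smaller share of cardiomyocyte RNA in the Erbb4 value was not tested.

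Erbb3, a receptor without an active kinase of its own, gave 3.59, 2.48 and 3.85 RPKM in E10.5 Ctrl and 2.26, 1.499 and 3.16 in cKO. The groups overlapped, and the log2 fold change of -0.54 (SE 0.273, 95% interval -1.15 to 0.07) had a limma adjusted p of 0.262. With sample weights it was -0.82 and passed (limma adjusted p = 0.0259), and without cKO 2 it was -0.27 (limma adjusted p = 0.599). The summed RPKM of 7 cushion mesenchyme markers, the cells of the forming valves, was 117, 94.1 and 104 in those Ctrl samples and 88.7, 63.3 and 110 in cKO. None of the 7 passed the limma test, and the 2 with an unadjusted p under 0.05 had opposite signs, Snai1 at -0.76 and Prrx2 at 0.26 on the log2 scale. Tbx20 held most of the sum, with a mean RPKM of 66.4 in Ctrl, and it was at 18.2 to 64.1 RPKM in the adult samples too, so the sum is not particular to cushion cells.

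At 4 weeks Erbb3 gave 3.74, 2.52 and 2.12 RPKM in Ctrl and 3.31, 2.83 and 3.46 in icKO. Ctrl 1 lay above all icKO samples and the other two below them. The log2 fold change was 0.22 (SE 0.202, 95% interval -0.24 to 0.68, limma adjusted p = 0.332); it was -0.30 with median-ratio scaling and 0.45 without Ctrl 1, where it passed (limma adjusted p = 0.0367). Schwann cells also use ErbB3, and their defining markers were near 0 in these samples: Sox10 did not exceed 0.031 RPKM in any of them, and Foxd3 was listed at 0 in all 6.

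Egfr was the least abundant receptor at both stages. It gave 1.60, 2.07 and 1.37 RPKM in E10.5 Ctrl and 0.490, 1.55 and 2.07 in cKO, with cKO 1 far below the others. The log2 fold change of -0.45 (SE 0.441, 95% interval -1.44 to 0.53) had a limma adjusted p of 0.565, and without cKO 1 it was 0.11. The same sample had the highest summed RPKM of 6 erythroid genes, 2755 against 306 to 1237 in the other E10.5 samples, and the part of blood RNA in its Egfr value was not tested.

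At 4 weeks Egfr gave 0.013, 0.029 and 0.109 RPKM in Ctrl and 0.327, 0.230 and 0.154 in icKO, about 2, 5 and 19 reads and about 56, 39 and 19 reads. It was below the filter, and in the fit without one its log2 fold change was 1.18 (limma adjusted p = 0.00895). The highest Ctrl and the lowest icKO sample rested on the same estimated number of reads.

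The receptors' order changed with stage and genotype. In E10.5 Ctrl the mean RPKM ran from Erbb2 (15.9) over Erbb4 (8.15) and Erbb3 (3.31) to Egfr (1.68), with no overlap between neighbours. In cKO the order was the same, with Erbb3 and Egfr overlapping. In the 4-week Ctrl, Erbb3 (2.79) and Erbb4 (2.59) overlapped and Erbb2 (1.57) lay below both, whereas in icKO Erbb2 (3.49) and Erbb3 (3.20) overlapped and Erbb4 (1.75) lay below both. In E10.5 Ctrl, Nrg1 (4.04) lay between Erbb4 and Erbb3 without overlap, and Hbegf (2.98) overlapped with Nrg1, Erbb3 and Egfr. In the adult samples Hbegf lay above all 4 receptors.

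As shares of the summed RPKM of the 4 receptor genes, Erbb2 held 54.7% ± 0.927 in E10.5 Ctrl and 50.7% ± 2.71 in cKO, and Erbb4 28.1% ± 1.21 and 33.7% ± 5.43 (SD, n = 3). At 4 weeks Erbb2 held 22.5% ± 1.54 in Ctrl and 40.2% ± 5.34 in icKO, Erbb4 37.3% ± 3.46 and 20.3% ± 4.112, and Erbb3 39.3% ± 5.66 and 36.8% ± 3.66 (SD, n = 3). Neither the Erbb2 nor the Erbb4 shares overlapped between the adult groups, while those of Erbb3 did. The summed receptor RPKM was 28.2 to 30.6 in E10.5 Ctrl and 23.1 to 24.4 in cKO, and 6.07 to 8.17 and 8.55 to 8.95 at 4 weeks.

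**Figure D4:**
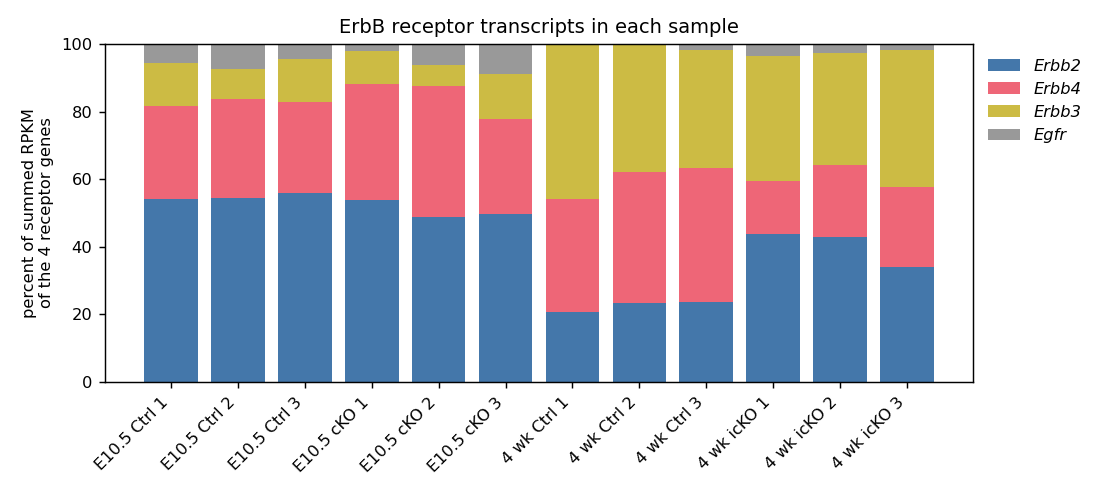
Share of each receptor gene (percent of the summed RPKM of Erbb2, Erbb4, Erbb3 and Egfr, vertical axis) in each of the 12 samples (horizontal axis), as stacked bars. Erbb2 holds more than any other receptor in every E10.5 sample, Erbb2 is below Erbb4 in all 3 adult Ctrl samples, and above it in all 3 icKO samples.

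A ratio of 2 transcripts within a sample does not depend on a scaling factor for that sample. These ratios were chosen after the values had been seen. The Erbb2 to Erbb4 ratio was 0.622, 0.602 and 0.591 in the 4-week Ctrl samples and 2.78, 2.004 and 1.44 in icKO. Its groups did not overlap, and neither did those of Erbb2 to Erbb3, with means of 0.584 in Ctrl and 1.11 in icKO, or of Erbb3 to Erbb4, with 1.07 and 1.87. At E10.5 the Erbb2 to Erbb4 ratio was 1.95, 1.85 and 2.05 in Ctrl and 1.57, 1.25 and 1.77 in cKO, also without overlap, and the Erbb2 to Erbb3 and Erbb3 to Erbb4 ratios overlapped. Each ratio without overlap had a two-sided exact permutation p of 0.1, the smallest that 3 against 3 samples allow, and 0.15 after adjustment over the 6 ratios compared, so none could pass 0.05.

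The effect of the knockout itself was compared between stages in a fit of all 12 samples, as the 4-week log2 fold change minus that at E10.5. Of 8909 genes expressed at both stages, 68.7% passed this test and the median difference was 0.69. The difference was 1.51 for Erbb2 (SE 0.173, limma adjusted p = 6.77e-06) and 2.02 for Hbegf (SE 0.289, limma adjusted p = 4.10e-05). It was 0.76 for Erbb3 (SE 0.371, limma adjusted p = 0.0825) and -0.51 for Erbb4 (SE 0.218, limma adjusted p = 0.0532), so these were not shown to differ. With median-ratio scaling the Erbb4 difference was -1.14 and passed, and the Erbb3 difference was 0.12 (limma adjusted p = 0.790). The stages differ in age, Cre line and cells sampled, which cannot be told apart here.

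A list of 79 further genes of the pathway was counted by role, from ligands and the enzymes that release them to the cascades and their targets. At E10.5 none of the 70 tested genes passed the limma test. The median change of the list was 0.02 on the log2 scale against -0.13 for all genes tested. An unadjusted limma p under 0.05 was found for 8 (5 higher, 3 lower), and the share of all genes at that level was not counted. With sample weights 4 rose and 4 fell, where all genes tested gave 400 higher and 1780 lower. At 4 weeks 49 of 64 tested genes rose and 4 fell, with a median of 0.83 against 0.57 for all genes. With median-ratio scaling the counts at 4 weeks were 30 and 12, where all genes tested gave 3299 higher (34.7%) and 3186 lower (33.5%) in place of 5765 (60.6%) and 1727 (18.1%). These shares of all genes stand beside each count by role at 4 weeks, which is given on both scales. The genes named from this list as rising or falling kept their direction and passed the test at 4 weeks under all 4 scalings tried, with the exception of Adam17.

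**Figure D5:**
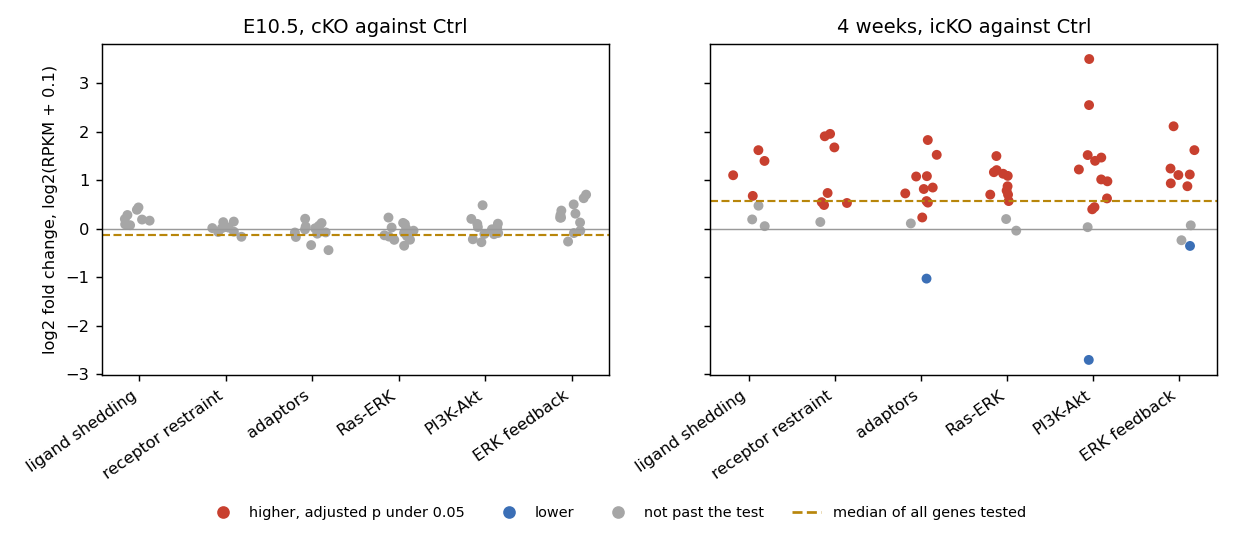
Log2 fold change on the log2(RPKM + 0.1) scale (vertical axis) of each tested pathway gene by role (horizontal axis, points spread sideways for visibility) at E10.5 and at 4 weeks. Red marks genes that rose and blue those that fell (limma adjusted p under 0.05), grey the rest, and the dashed line the median of all genes tested; no gene passed at E10.5, and Pik3r3 at 3.49 and Pik3r1 at -2.70 are the extremes at 4 weeks.

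The E10.5 genes nearest to the threshold, named after their values were seen, included targets of ERK signalling. Etv4, an ETS transcription factor, gave 3.54, 3.27 and 3.51 RPKM in Ctrl and 5.13, 4.59 and 7.65 in cKO, with 0.70 as the log2 fold change (limma adjusted p = 0.0647). Ier3, an immediate early gene, gave 2.83, 2.08 and 1.99 RPKM and 3.498, 3.79 and 3.40, with 0.63 as the log2 fold change (limma adjusted p = 0.0771). Nras, a Ras GTPase, gave 27.6, 28.4 and 27.1 RPKM and 20.7, 22.2 and 22.1, with -0.35 as the log2 fold change (limma adjusted p = 0.0718). With median-ratio scaling Etv4, Ier3 and Furin passed as higher, with limma adjusted p of 0.0314, 0.0387 and 0.0266, as 2.45% of all genes did. Over the 12 tested ERK target and feedback genes the median change at E10.5 was 0.25 on the log2 scale, against -0.13 for all genes tested. Spry2, Dusp6 and Dusp5 of this role went the other way, at -0.27, -0.09 and -0.04. Whether ERK signalling changed was not tested.

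Of the genes that shed or process the ligands, 4 of 7 tested rose at 4 weeks and none fell, against 60.6% and 18.1% of all genes, and with median-ratio scaling 3 rose and 1 fell. Rhbdf1, a partner of the sheddase ADAM17, went from a mean RPKM of 4.09 ± 0.216 to 12.7 ± 0.307 (SD, n = 3, log2 fold change 1.62). Adam10, a sheddase, went from 4.88 to 13.0 (log2 fold change 1.39), and Furin, a proprotein convertase, from 31.3 to 66.8 (log2 fold change 1.10). Adam17, the sheddase of HB-EGF, also rose, from 5.19 to 8.31 (log2 fold change 0.67); it was named after its values were seen, and with median-ratio scaling its log2 fold change was 0.14 and did not pass (limma adjusted p = 0.292).

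Of the genes listed as restraining or binding the receptors, 7 of 8 tested rose at 4 weeks and none fell. Errfi1, a feedback inhibitor of ErbB kinases, gave 2.08, 1.66 and 1.29 RPKM in Ctrl and 8.56, 5.73 and 6.01 in icKO (log2 fold change 1.95, limma adjusted p = 2.57e-05). Rnf41, a ubiquitin ligase for ErbB3, gave 2.16, 2.09 and 2.26 RPKM and 9.55, 6.92 and 8.93 (log2 fold change 1.90, limma adjusted p = 2.84e-06). Erbin, an ErbB2-binding protein, went from a mean RPKM of 9.94 to 32.1 (log2 fold change 1.67). The mean was 4.04 times as high in icKO for Errfi1 and 3.898 times for Rnf41. With median-ratio scaling 3 of the 8 passed as higher and 1 as lower, against 34.7% and 33.5% of all genes.

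Among the adaptors, 10 of 12 tested genes rose at 4 weeks and 1 fell, and with median-ratio scaling 6 rose and 3 fell. Gab2, a docking protein, went from a mean RPKM of 2.11 to 7.81 (log2 fold change 1.82), Shc1 from 3.03 to 8.91 (1.52) and Crk from 9.13 to 19.4 (1.08). Plcg1, a phospholipase bound by activated receptors, was the gene that fell, from 7.51 to 3.68 (log2 fold change -1.03, limma adjusted p = 0.000168). Grb7, an adaptor gene that lies near Erbb2, was listed at 0 in all 6 adult samples and was not tested.

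Among the Ras-ERK genes, 10 of 12 tested rose and none fell at 4 weeks, and with median-ratio scaling 6 rose and 2 fell. Nras went from a mean RPKM of 2.77 to 7.99 (log2 fold change 1.49), Mapk3, which encodes ERK1, from 6.04 to 14.1 (1.21), and Nf1, a brake on Ras, from 4.90 to 11.1 (1.16). The members that rose thus included both a Ras gene and a Ras inhibitor.

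The PI3K-Akt genes held the largest changes of the list, in opposite directions. Pik3r1, which encodes the main regulatory subunit of PI3K, gave 65.4, 48.4 and 40.5 RPKM in Ctrl and 7.85, 7.49 and 7.61 in icKO, a log2 fold change of -2.70 (SE 0.155, limma adjusted p = 9.06e-07). Pik3r3, another regulatory subunit, gave 1.18, 0.801 and 1.94 RPKM and 16.3, 14.1 and 14.3, a log2 fold change of 3.49 (SE 0.254, limma adjusted p = 2.88e-06). Pik3r3 thus went from the lower to the higher of this pair of transcripts. Pik3cb, a catalytic subunit, went from a mean RPKM of 2.63 to 15.8 (log2 fold change 2.54) and Pdpk1, the kinase upstream of Akt, from 10.3 to 29.7 (1.51). Akt1 had a mean of 47.1 in Ctrl and 47.9 in icKO (log2 fold change 0.03, 95% interval -0.20 to 0.26, limma adjusted p = 0.797), a value that was -0.51 and passed as lower with median-ratio scaling. Of the 13 genes of this role, 11 rose and 1 fell, and with median-ratio scaling 8 rose and 2 fell. At E10.5 Pik3r1 had a mean of 4.49 in Ctrl and 4.13 in cKO (limma adjusted p = 0.658).

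Among the ERK feedback and target genes, 7 of 10 tested rose and 1 fell at 4 weeks, and with median-ratio scaling 4 rose and 2 fell. Etv5, an ETS factor induced by ERK, gave 1.40, 2.20 and 1.89 RPKM in Ctrl and 7.55, 9.45 and 7.46 in icKO (log2 fold change 2.11, limma adjusted p = 6.14e-06). Spry1 went from a mean RPKM of 0.536 to 1.63 (1.62, limma adjusted p = 0.00610) and Dusp5, an ERK phosphatase, from 1.68 to 4.101 (1.24, limma adjusted p = 0.000314). Spred2, an inhibitor of Ras-ERK signalling, fell from 3.33 to 2.58 (log2 fold change -0.36, limma adjusted p = 0.0195). The role therefore held both rising and falling inhibitors.

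The genes whose profiles were most like each member's were found over 11492 genes and 12 samples, as the smallest SD of the log2 difference, which ignores a constant ratio. For Nrg1 they were Col5a1 (SD 0.197), Grip1 (0.214) and Ddias (0.323), and for Hbegf Qsox1 (0.289), Rnf19b (0.291) and Lmcd1 (0.301). For Erbb2 they were Pck2 (0.139), Cdk2 (0.158) and Rab8b (0.171), for Erbb4 Tm7sf3 (0.180), Plscr3 (0.186) and Zfp157 (0.202), and for Erbb3 Pdcd2l (0.229), Lyrm4 (0.237) and Ybx3 (0.246). For Egfr they were Eno1b and Eno1 (both 0.395), near-identical copies whose reads may be split between them, and Pop1 (0.402). Col5a1, a fibrillar collagen gene, had a mean RPKM of 15.3 in E10.5 Ctrl, 24.3 in cKO, 0.483 in the 4-week Ctrl and 2.31 in icKO. Qsox1 had 4.20, 7.60, 7.51 and 68.5. These likenesses are dominated by the difference between the stages for most members and carry no test.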

How the data were processed

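RNA was sequenced from 3 samples in each of 4 groups. Per the submitters' processing notes, which give no roles, cutadapt 2.6, STAR 2.5.3a, HOMER 4.11.1, DESeq2 1.12.4 and mm10 were used. The authors deposited a table per stage with RPKM for each sample and the pooled mean RPKM, beside their own log2 fold changes and adjusted p-values from comparing the groups, which were not used. Libraries were made with ribosomal RNA depletion. The transcript lengths, the scaling total and the use of strand were not given in the sources used here.

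Each stage was tested with limma 3.58.1 (R 4.3.3, trended eBayes) on log2(RPKM + 0.1), keeping genes whose mean RPKM exceeded 1, with Benjamini-Hochberg adjustment over all genes tested. "Rose" and "fell" mean an adjusted p under 0.05; fold changes of low genes are understated on this scale. Exact permutation tests used scipy 1.17.1. Of 200 genes changed by a log2 of 1.5 in simulated data, 169 were recovered at E10.5 (10885 genes, 10 false calls) and 182 at 4 weeks (9517 genes, 10 false calls). The simulation held no shift common to all genes and no weaker changes. It therefore does not cover the shift of the 4-week scale or the power for smaller effects. Depth was estimated with the longest GENCODE vM21 transcript for 20540 of 20775 genes; read numbers cover counting error only. The main tests treated the samples as unpaired. The members and gene lists were chosen with earlier results of these data known. Of the list, all ligands and up to 3 genes per role, stage and direction with the largest changes past the test were named. Alternatives were another pseudocount, filter or scaling, sample weights, no trend, a replicate block, and each sample left out.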

Additional observations from a re-analysis of the deposited data

Results flagged for a closer look

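The knockout effect differed between the stages for 2 of the 4 members tested at both, by the test of the difference itself over all 12 samples. For Erbb2 the 4-week log2 fold change exceeded that at E10.5 by 1.51, and the separate values had opposite signs, -0.40 (not past the test) and 1.10. For Hbegf the difference was 2.02, between values of 0.75 (not past the test) and 2.77. Over the 8 alternatives run other than leaving out a sample, which did not include sample weights or a mean RPKM above 5, these differences ranged from 0.87 to 1.55 for Erbb2 and from 1.37 to 2.04 for Hbegf and passed in each; leaving out each of the 12 samples in turn gave 1.42 to 1.63 and 1.78 to 2.30, also passing. Of all genes tested, 68.7% passed this test, and the median difference was 0.69.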

How the results depend on the processing

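Hbegf, Erbb2 and Erbb4 at 4 weeks and Nrg1 at E10.5 kept their direction and passed under each alternative that was run other than leaving out a sample (10 for Hbegf and Nrg1, and 9 for Erbb2 and Erbb4, whose mean RPKM was not above 5), with log2 fold changes of 2.24 to 2.83, 0.58 to 1.15, -1.06 to -0.39 and 0.66 to 0.94. On leaving out Ctrl 3, cKO 1 or cKO 2, however, the E10.5 Nrg1 call was lost. The calls of Hbegf, Erbb2 and Erbb4 at 4 weeks held in all 6 such fits. The remaining results were less firm under the alternatives. At E10.5 Erbb2 passed with a mean RPKM above 5 (-0.40) and with sample weights (-0.45) but not under the 3 other scalings (-0.29, -0.28 and -0.23), Erbb3 with sample weights (-0.82), and Hbegf with scaling that left out the top 20 genes (0.93) and with sample weights (0.67). The sign of Erbb4 at E10.5 turned with median-ratio scaling (0.076), with quantile normalization (0.074), with scaling that left out the top 20 genes (0.13) and sample weights (0.014), and that of Erbb3 at 4 weeks with the first 3 of these (-0.30, -0.24 and -0.0095). The difference between stages for Erbb4 passed under the same 3 scalings (-1.14, -1.04 and -0.91) and without the trend (-0.51); that for Erbb3 fell to 0.12, 0.19 and 0.36 under them. The difference was not run with sample weights or with a mean RPKM above 5. The causes were not tested.

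Leaving out 1 sample at a time gave log2 fold changes of 0.72 to 0.81 for Nrg1, -0.79 to -0.27 for Erbb3 (-0.27 without cKO 2), 0.47 to 0.99 for Hbegf (0.47 without Ctrl 2), -0.17 to 0.088 for Erbb4 (0.088 without cKO 3) and -0.83 to 0.11 for Egfr (0.11 without cKO 1) at E10.5, and 0.051 to 0.45 for Erbb3 at 4 weeks. The difference between stages was 0.50 to 1.010 for Erbb3, passing without E10.5 Ctrl 2 (0.95), E10.5 cKO 3 (1.010) or 4-week Ctrl 1 (0.98), and -0.64 to -0.36 for Erbb4, passing without E10.5 cKO 3 (-0.64) or 4-week icKO 3 (-0.61). Counts over all genes at E10.5 were 9 to 36 called higher, 18 to 102 called lower, 9 to 107 passed higher and 19 to 583 passed lower, the extremes of the last without Ctrl 3 and without cKO 3.

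At E10.5, 26 genes were called higher and 59 lower beyond a log2 of 1. They were 12 and 36 with a pseudocount of 1, 17 and 35 without a filter, 9 and 34 with a mean RPKM above 5, 48 and 36 with scaling that left out the top 20 genes, and 43 and 100 with sample weights; lower calls were 39 with quantile normalization and 38 without the trend. Genes that passed, 94 higher and 376 lower, were 35 and 112 without a filter, 407 and 206 with scaling that left out the top 20 genes, 30 and 99 without the trend, and 400 and 1780 with sample weights, and 267 and 307 passed as higher with median-ratio scaling and quantile normalization. Of the pathway list, 3, 3 and 6 passed as higher at E10.5 under the 3 scalings, and 4 higher and 4 lower with sample weights.

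At 4 weeks 2668 genes were called higher and 804 lower. With a mean RPKM above 5, which tests fewer genes, these were 1687 and 454, with 3783 and 1055 passing and 29 and 2 of the pathway list. With median-ratio scaling they were 1106 and 1476, with 3299 and 3186 passing and 30 and 12 of the list. With quantile normalization they were 1213 and 1341, with 3530 and 3005 passing and 32 and 12 of the list.

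Same-numbered Ctrl and knockout samples had deviations correlated at 0.012, 0.101 and -0.07 at E10.5 and at 0.153, 0.043 and 0.045 at 4 weeks. Samples of different number gave -0.177 to 0.13 at E10.5 and -0.129 to 0.081 at 4 weeks. These few correlations do not settle whether the numbers mark pairs. A replicate block gave 77 genes higher and 304 lower at E10.5 and a difference for Erbb3 of 0.76 that passed (limma adjusted p = 0.0263), and it changed no other call of a member. With 3 samples a group and these depths, Egfr and Nrg1 in the adult cells rest on few reads.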
